A study of Homo sapiens with 6 samples.

Results

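The homologous recombination and Fanconi anaemia genes were followed in 3 lines made from HEK293 (human embryonic kidney cells in long-term culture), measured on Affymetrix whole-transcript arrays. The set was a list of 41 genes of recombination repair, of Fanconi crosslink repair and of the checkpoint signalling that serves them. A gene counted as measured where the array table held a row annotated to its symbol alone, which gave 33 of the 41 (33 of 12448 genes so measured), each with 1 row. RAD50, ATM, ATRIP and FANCL were present only in rows shared with another symbol, and BRCA2, RBBP8, FANCA and FANCD2 were not analysed here. Of the 33, 31 passed a filter on low levels (a mean over the 6 samples of at least 5.03 log2, the 25th percentile of all 15492 rows). RAD51B and FANCM lay below it and are given by their values.

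All 3 lines carried the pcDNA-FRT construct with a tet-on (doxycycline-inducible) system, and were HEK293/pcDNA-FRT empty vector (vector), HEK293/pcDNA-FRT wtAPE1 (wild-type APE1) and HEK293/pcDNA-FRT ubAPE1 (ubiquitin joined to APE1). APE1, encoded by APEX1, is the apurinic/apyrimidinic endonuclease of base excision repair. Each line was grown with puromycin at 1 µg per ml and sampled without doxycycline and with doxycycline at 2 µg per ml for 16 h, which gives 6 groups. A group was a single deposited column, the authors' average of 3 biological replicates, and the spread between those replicates was not in the values. Because 1 line stood for each construct, construct and line cannot be told apart. In such bulk samples a lower share of cells expressing a gene and less of its RNA per cell cannot be told apart.

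Homologous recombination copies the sister chromatid to mend a broken chromosome. The broken end is sensed and cut back to single-stranded DNA, the BRCA proteins prepare it for strand exchange, it invades the intact copy, and the joint molecules are later dissolved or cut. The Fanconi proteins detect crosslinks between the DNA strands, attach ubiquitin to the FANCI and FANCD2 pair and hand the lesion to nucleases and to recombination. Many of these genes are known to be transcribed mainly around S phase, in part through E2F factors.

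The values were log2 expression levels. The median over the 11619 rows that passed the level filter differed between columns, by 0.127 above (vector without doxycycline) to 0.122 below (wtAPE1 without doxycycline) the mean of the 6 medians. Levels were therefore centred on each column's median, so that every difference is relative to the median row. A response is the level with doxycycline minus the level without it in the same line, and a difference of 1.5-fold (0.585 log2) was counted as large, with no test, since each group is 1 column. APEX1, the gene the construct induces, lay at 9.41 and 9.60 log2 in vector cells, 9.62 and 10.71 in wtAPE1 cells, and 9.75 and 10.68 in ubAPE1 cells, here and below without and then with doxycycline. It was higher with doxycycline by 1.09 and 0.92 log2 in the wtAPE1 and ubAPE1 lines and by 0.18 in the vector line, in the direction of the labels. Of the epithelial markers, KRT8, KRT18, KRT19 and EPCAM passed the level filter and CDH1 did not. Of the kidney markers, PAX2, LHX1 and PAX8 passed and CDH16 did not, and the neuronal genes known in HEK293 (NEFL, INA and ENO2) passed. Over the 4 comparisons of an APE1 line with the vector line in the same state, EPCAM differed by -3.30 to -2.66 log2, ENO2 by -2.54 to -2.30, KRT19 by -1.09 to -0.63, NEFL by -0.74 to -0.55, KRT18 by -0.46 to -0.30, INA by -0.44 to 0.0085 and KRT8 by -0.26 to 0.28. PAX2, LHX1 and PAX8 were higher in all 4, by 0.10 to 0.68. The part of these marker differences in the results below was not tested. The fibroblast markers COL1A1, COL1A2 and PDGFRB passed, while THY1 and the 3 blood markers (CD14, HBB and CD3E) lay below the filter.

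The promoters of 6 members are shown because their genes span the range of responses described below, from FANCB and TOPBP1, among the 3 members lowest with doxycycline against without it in the ubAPE1 line, to MUS81, the highest. XRCC2, EXO1 and FANCC are shown with TOPBP1 because they held an E2F match. The sequences are from RefSeq (build GRCh38.p14), from 110 bases before to 30 after the transcription start, 5′ to 3′ on the gene's strand. Capitals mark the E2F letters TTTCGCGC, TTTGGCGC, TTTCCCGC or TTTGCCGC on either strand. The windows lie at chrX:14873040-14873179 (FANCB), chr3:133661912-133662051 (TOPBP1), chr7:152676112-152676251 (XRCC2) and chr9:95317680-95317819 (FANCC) on the minus strand and at chr1:241848094-241848233 (EXO1) and chr11:65860323-65860462 (MUS81) on the plus strand.
FANCB: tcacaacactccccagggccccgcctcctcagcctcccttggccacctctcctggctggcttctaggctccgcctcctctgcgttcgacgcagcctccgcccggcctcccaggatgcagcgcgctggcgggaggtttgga
TOPBP1: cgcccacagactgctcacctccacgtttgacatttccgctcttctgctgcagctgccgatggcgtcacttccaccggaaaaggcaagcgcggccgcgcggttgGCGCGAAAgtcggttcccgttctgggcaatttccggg
XRCC2: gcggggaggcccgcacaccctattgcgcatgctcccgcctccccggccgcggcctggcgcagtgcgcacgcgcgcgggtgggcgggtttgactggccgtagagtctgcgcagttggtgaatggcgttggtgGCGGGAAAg
EXO1: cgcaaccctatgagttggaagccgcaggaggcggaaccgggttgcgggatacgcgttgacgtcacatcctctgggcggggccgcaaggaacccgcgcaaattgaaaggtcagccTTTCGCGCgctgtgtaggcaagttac
FANCC: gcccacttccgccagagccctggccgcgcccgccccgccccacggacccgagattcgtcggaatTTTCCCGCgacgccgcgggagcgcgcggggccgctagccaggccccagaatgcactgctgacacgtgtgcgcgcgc
MUS81: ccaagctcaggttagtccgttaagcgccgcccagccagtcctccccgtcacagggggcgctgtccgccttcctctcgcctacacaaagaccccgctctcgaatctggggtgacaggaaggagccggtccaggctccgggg

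A promoter of 300 bases (250 before to 50 after the start) was found for 29 of the 33 members. The E2F letters were in 4 of the 29 (13.8%) and in 855 of 15843 protein-coding genes (5.40%). The CHR letters TTTGAA, the element of genes expressed late in the cell cycle, were in 3 of the 29 (10.3%, against 15.8% of protein-coding genes), and CCAAT was in 15 (51.7%, against 42.1%). Both strands were searched, and a match is a description of the letters only. FANCB, among the 3 lowest ubAPE1 responses, and MUS81, the highest, had no E2F letters in the windows shown. For WRN, the lowest, no promoter was found.

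With doxycycline most members lay lower in the ubAPE1 line, with smaller median differences in the other lines. The ubAPE1 response had a median of -0.25 log2 over the 31 members above the filter, and 23 of the 31 were below 0. Over all 11619 rows the median was 0.039 and 45.4% were below 0. In the vector line the median over the 31 members was -0.041, with 19 below 0, and all rows gave 0.017. In the wtAPE1 line it was 0.080, with 22 above 0, and all rows gave -0.011. The sign pattern lower, higher and lower in the vector, wtAPE1 and ubAPE1 lines was the most frequent one, in 11 of the 33 members (33.3%) and in 10.8% of the rows. In the values as deposited, without centring, the ubAPE1 response of the members had a median of -0.42 log2 and 30 of 31 were below 0, MUS81 being the other one, while the median row lay at -0.13. The vector median was then -0.10 (23 below 0, median row -0.045) and the wtAPE1 median 0.16 (26 above 0, median row 0.074).

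Among the 6 samples, the ubAPE1 column with doxycycline was the lowest for 14 of the 31 members and the ubAPE1 column without doxycycline the highest for 12. Over all rows these shares were 18.6% and 15.2%. The wtAPE1 column without doxycycline was lowest for 10 members (18.0% of rows), and the wtAPE1 column with doxycycline was lowest for 0 (7.08% of rows). Centred on each gene's mean, the median member lay at 0.12 log2 in ubAPE1 without doxycycline and at -0.13 with it, and the other 4 columns lay between -0.081 and 0.046.

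**Figure D1:**
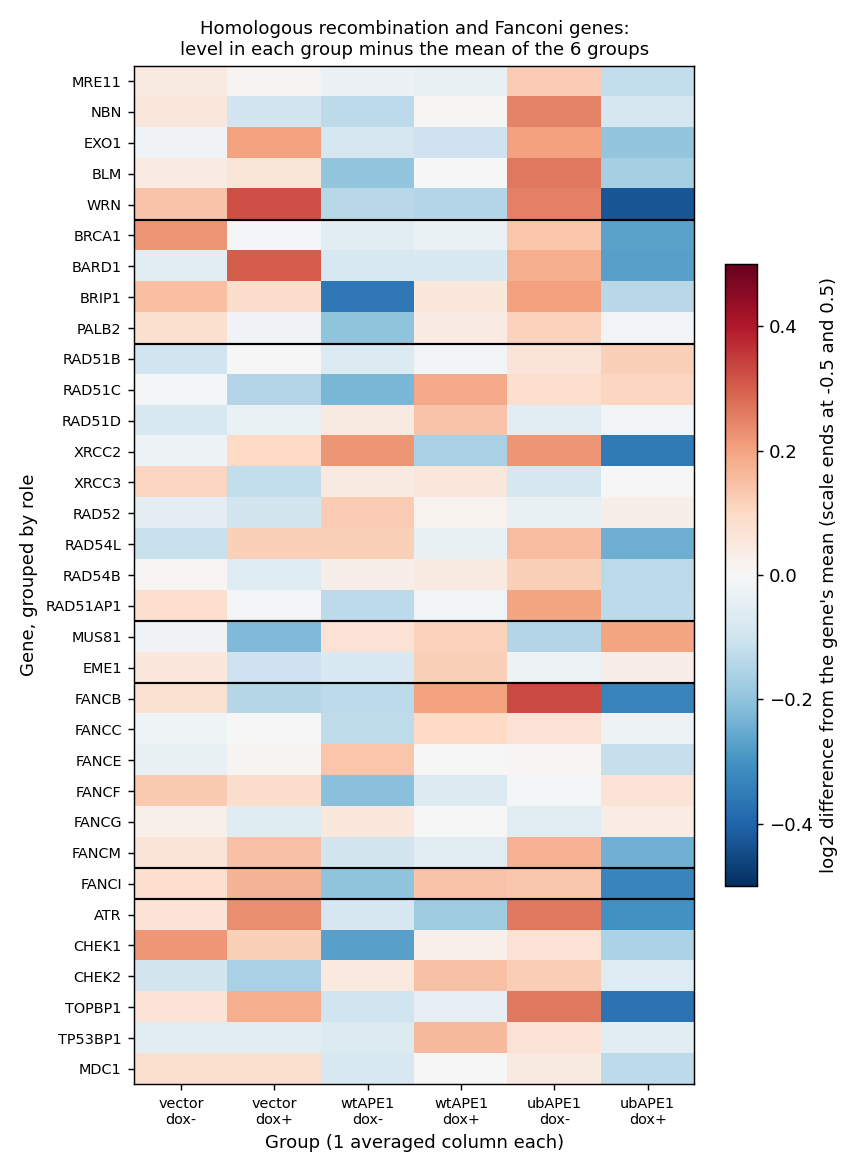
Level of each of the 33 measured members in each of the 6 samples, as the centred log2 level minus the gene's mean over the samples. Genes are in rows grouped by role, samples are in columns and the colour bar gives the difference in log2. The ubAPE1 column with doxycycline is the lowest sample for 15 of the 33 genes and the ubAPE1 column without doxycycline the highest for 13.

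Of the genes that sense and cut back broken ends, all 5 measured were lower with doxycycline in the ubAPE1 line, with responses from -0.68 to -0.25 log2. WRN, a helicase and exonuclease of the RecQ family, lay at 6.26 and 6.44 log2 in vector cells, 5.98 and 5.97 in wtAPE1 cells, and 6.37 and 5.70 in ubAPE1 cells. The ubAPE1 level with doxycycline was the lowest of the 6, and the vector line held the highest. The ubAPE1 response of WRN was -0.68 log2, or 1.60-fold lower, against 0.18 (vector) and -0.0074 (wtAPE1). It was 1 of 3 members of the 31 past 1.5-fold lower in the ubAPE1 line, where 2.75% of all rows were. EXO1, the exonuclease of long-range resection, lay at 8.60 and 8.82 log2 in vector cells, 8.54 and 8.52 in wtAPE1 cells, and 8.82 and 8.42 in ubAPE1 cells. Its ubAPE1 columns held both the highest and the lowest level, though the highest was shared to within 0.01 log2 with the vector column with doxycycline. BLM, the Bloom syndrome helicase that works in resection and in dissolving joint molecules, had responses of 0.019 (vector), 0.20 (wtAPE1) and -0.43 (ubAPE1). NBN and MRE11, members of the complex that first binds the break, had ubAPE1 responses of -0.33 and -0.25 log2, and vector responses of -0.15 and -0.032.

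All 4 measured genes of the BRCA proteins and their partners were below 0 in the ubAPE1 line (median -0.37 log2) and above 0 in the wtAPE1 line (median 0.13), none of them by 1.5-fold. In the wtAPE1 line BARD1 and BRCA1 were near 0, and with the length trend removed they lay at -0.045 and -0.0195. BARD1, the partner with which BRCA1 forms its ubiquitin ligase, lay at 6.94 and 7.30 log2 in vector cells, 6.92 and 6.92 in wtAPE1 cells, and 7.18 and 6.72 in ubAPE1 cells. The vector line with doxycycline was the highest sample and the ubAPE1 line with doxycycline the lowest, while the wtAPE1 line held the same level in both states to within 0.01 log2. The responses of BARD1 were 0.35 (vector), 0.0041 (wtAPE1) and -0.45 (ubAPE1), the highest vector response among the 31 members. BRCA1 itself lay at 7.04 and 6.81 log2 in vector cells, 6.76 and 6.78 in wtAPE1 cells, and 6.95 and 6.55 in ubAPE1 cells, lower with doxycycline in both the vector line (-0.23) and the ubAPE1 line (-0.40). BRIP1, the helicase that binds BRCA1 and is also FANCJ, lay at 7.16 and 7.10 log2 in vector cells, 6.66 and 7.07 in wtAPE1 cells, and 7.22 and 6.88 in ubAPE1 cells. Its wtAPE1 level without doxycycline stood below the other 5, and its responses were -0.062 (vector), 0.41 (wtAPE1) and -0.34 (ubAPE1). PALB2, which bridges BRCA1 and BRCA2, had a wtAPE1 response of 0.24 and a ubAPE1 response of -0.13 log2.

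The genes of strand exchange were mixed, with 4 of 8 below 0 in the ubAPE1 line. XRCC2, which acts in strand exchange, lay at 6.55 and 6.68 log2 in vector cells, 6.80 and 6.42 in wtAPE1 cells, and 6.80 and 6.22 in ubAPE1 cells. It was lower with doxycycline in both APE1 lines, with responses of -0.38 (wtAPE1) and -0.57 (ubAPE1) log2, and the wtAPE1 response was the lowest of the 31 members there. RAD54L, the motor protein that drives strand invasion, lay at 7.11 and 7.34 log2 in vector cells, 7.34 and 7.19 in wtAPE1 cells, and 7.37 and 6.98 in ubAPE1 cells. Its vector response of 0.23 and its ubAPE1 response of -0.40 had opposite signs. RAD51C, which also acts in strand exchange, lay at 7.97 and 7.83 log2 in vector cells, 7.75 and 8.17 in wtAPE1 cells, and 8.06 and 8.09 in ubAPE1 cells. Here the wtAPE1 line held both the lowest and the highest sample, and its wtAPE1 response of 0.42 log2 was the highest of the 31 members. XRCC3, which pairs with RAD51C, lay at 7.04 and 6.80 log2 in vector cells, 6.97 and 6.99 in wtAPE1 cells, and 6.84 and 6.93 in ubAPE1 cells. The 6 values of XRCC3 spanned 0.23 log2, and its vector response of -0.23 was the lowest of the 31 members in that line.

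RAD51AP1, which promotes strand exchange, and RAD54B, a relative of RAD54L, had ubAPE1 responses of -0.33 and -0.26 log2. RAD51D and RAD52 differed by at most 0.22 log2 over the 6 samples, with ubAPE1 responses of 0.042 and 0.066. RAD51B, below the level filter, ranged from 4.52 to 4.74 log2 over the 6 samples, with responses of 0.10 (vector), 0.052 (wtAPE1) and 0.054 (ubAPE1).

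Among the Fanconi genes the ubAPE1 responses ran from -0.67 log2 for FANCB to 0.090 for FANCG. FANCB, a subunit of the core ubiquitin ligase, lay at 5.19 and 4.97 log2 in vector cells, 4.98 and 5.32 in wtAPE1 cells, and 5.45 and 4.78 in ubAPE1 cells. Its wtAPE1 and ubAPE1 responses had opposite signs, 0.33 and -0.67 log2, and the level with doxycycline in ubAPE1 was 1.59-fold lower than without. The row lies close to the level filter, and 3 of its 6 levels were under 5.03 log2. FANCI, which is ubiquitinated together with FANCD2, lay at 8.11 and 8.20 log2 in vector cells, 7.83 and 8.17 in wtAPE1 cells, and 8.16 and 7.70 in ubAPE1 cells. Its responses were 0.088 (vector), 0.34 (wtAPE1) and -0.47 (ubAPE1), and the ubAPE1 level with doxycycline was the lowest of the 6. FANCM, the translocase that anchors the core complex on DNA, lay below the level filter at 5.02 and 5.10 log2 in vector cells, 4.87 and 4.91 in wtAPE1 cells, and 5.13 and 4.72 in ubAPE1 cells, with a ubAPE1 response of -0.42.

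The other core subunits spanned at most 0.34 log2 over the 6 samples. FANCE, the subunit that contacts FANCD2, lay at 6.91 and 6.96 log2 in vector cells, 7.09 and 6.95 in wtAPE1 cells, and 6.96 and 6.83 in ubAPE1 cells, and was lower with doxycycline in both APE1 lines (-0.14 and -0.13). FANCG lay at 6.47 and 6.38 log2 in vector cells, 6.50 and 6.44 in wtAPE1 cells, and 6.39 and 6.48 in ubAPE1 cells, a range of 0.11 log2 over the 6 samples. Its ubAPE1 response of 0.090 became -0.078 in the values as deposited and -0.092 with the length trend removed. FANCC had responses of 0.023 (vector), 0.23 (wtAPE1) and -0.10 (ubAPE1), and FANCF of -0.041 (vector), 0.14 (wtAPE1) and 0.076 (ubAPE1).

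MUS81 and EME1, the subunits of a nuclease that cuts joint molecules, were both above 0 in the ubAPE1 line, EME1 only in some settings. MUS81 lay at 7.01 and 6.81 log2 in vector cells, 7.10 and 7.14 in wtAPE1 cells, and 6.88 and 7.22 in ubAPE1 cells. Its ubAPE1 response of 0.34 log2 was the highest of the 31 members and its vector response was -0.20, so that the order of the states was opposite in these lines. The ubAPE1 response kept its sign in the values as deposited (0.18) and with the length trend removed (0.18). EME1 had responses of -0.15 (vector), 0.20 (wtAPE1) and 0.058 (ubAPE1), and the 6 samples spanned 0.22 log2. Its ubAPE1 response was -0.11 with the length trend removed, and below 0 in the values as deposited.

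All 6 measured checkpoint and chromatin genes were below 0 in the ubAPE1 line (median -0.21 log2). TOPBP1, which activates the ATR kinase, lay at 7.84 and 7.95 log2 in vector cells, 7.67 and 7.73 in wtAPE1 cells, and 8.04 and 7.40 in ubAPE1 cells. The 4 vector and wtAPE1 samples lay between the ubAPE1 sample without doxycycline above and the one with doxycycline below. The ubAPE1 response of TOPBP1 was -0.63 log2 (1.55-fold lower), against 0.11 and 0.061 in the vector and wtAPE1 lines. With quantile normalization it was -0.58, short of 1.5-fold. ATR, the kinase that answers stalled forks, lay at 5.74 and 5.90 log2 in vector cells, 5.59 and 5.49 in wtAPE1 cells, and 5.93 and 5.37 in ubAPE1 cells, the same order of the ubAPE1 samples around the rest. ATR at 1.48-fold lower and XRCC2 at 1.49-fold lower lay just short of 1.5-fold in the ubAPE1 line, and TOPBP1 just past it. CHEK1, the kinase ATR activates, had responses of -0.10 (vector), 0.30 (wtAPE1) and -0.23 (ubAPE1). CHEK2, TP53BP1 and MDC1, which act beside ATM and at the chromatin around breaks, had ubAPE1 responses of -0.19, -0.13 and -0.17 log2.

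**Figure D2:**
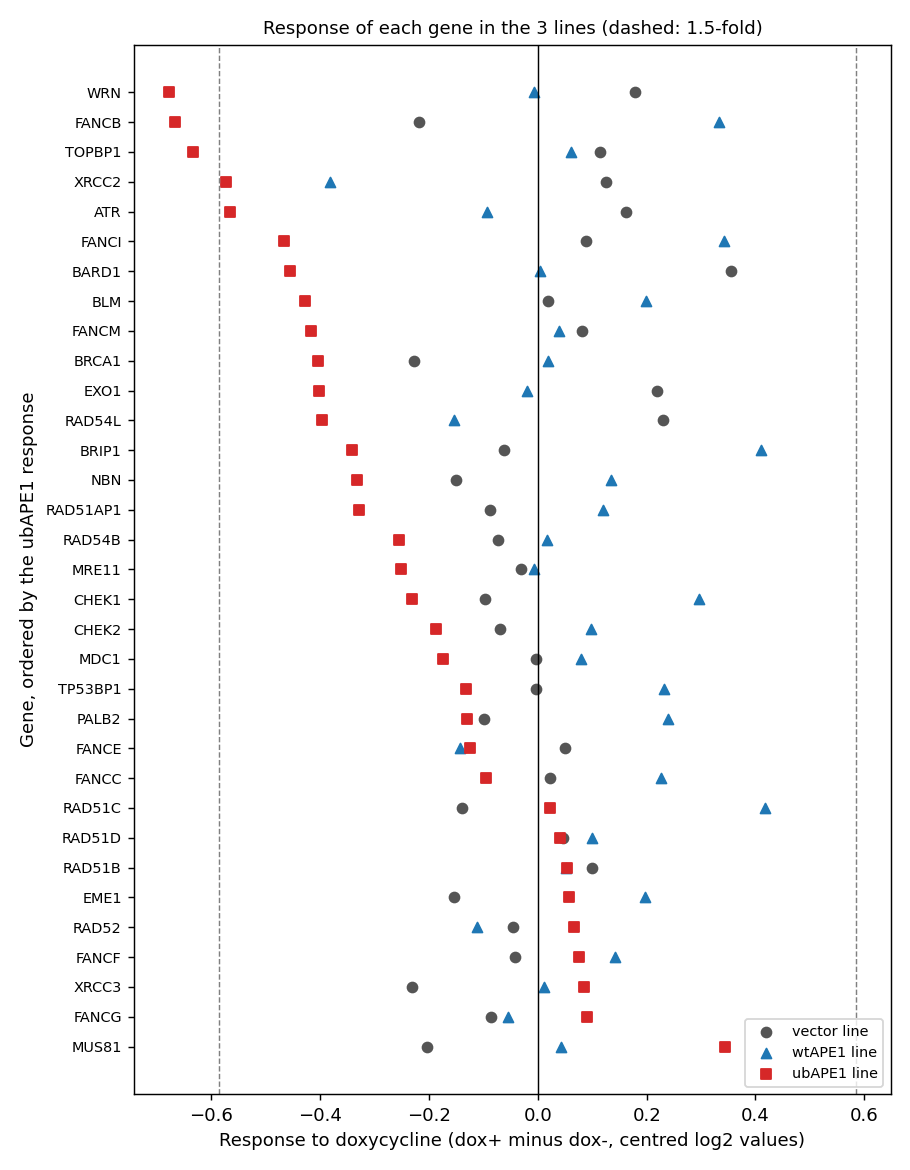
Doxycycline response (log2 level with minus without doxycycline, 1 averaged column per state) of each measured member, coloured by line (vector, wtAPE1, ubAPE1), and dashed lines at 1.5-fold. WRN, FANCB and TOPBP1 lie past the lower dashed line in the ubAPE1 line and no member passes either line in the other lines.

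In the vector line, 0 of the 31 members were 1.5-fold higher (0.379% of all rows were) and 0 were 1.5-fold lower (0.516%). The wtAPE1 line also had 0 higher (0.448% of rows) and 0 lower (0.482%). No member was 1.5-fold higher in the ubAPE1 line either, where 1.71% of rows were. The responses thus spanned -0.23 to 0.35 log2 (vector), -0.38 to 0.42 (wtAPE1) and -0.68 to 0.34 (ubAPE1).

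The responses were then set against each other. The ubAPE1 response minus the wtAPE1 response had a median of -0.36 log2 over the 31 members, with 26 below 0, against 0.036 over all rows. Past 1.5-fold lower lay 6 members, where 6.15% of rows did, and past 1.5-fold higher 0, where 5.78% of rows did. The largest of these differences were -0.999 for FANCB, -0.81 for FANCI, -0.75 for BRIP1 and -0.70 for TOPBP1, followed by WRN (-0.67) and BLM (-0.63). In FANCB, FANCI, BRIP1, BLM and TOPBP1 the wtAPE1 response was above 0 and the ubAPE1 response below 0, while for WRN the wtAPE1 response was -0.0074.

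Against the vector response, the ubAPE1 response had a median difference of -0.18 log2 (24 of 31 below 0, all rows 0.044), with 7 members past 1.5-fold lower (8.31% of rows) and 0 past 1.5-fold higher (4.64% of rows). These were WRN (-0.86), BARD1 (-0.81), TOPBP1 (-0.75), ATR (-0.73), XRCC2 (-0.70), RAD54L (-0.63) and EXO1 (-0.62). All of them had a vector response above 0. The wtAPE1 response minus the vector response had a median of 0.18 log2 (22 of 31 above 0, all rows -0.030), with 0 members past 1.5-fold in either direction (2.09% of rows higher and 1.82% lower). RAD51C (0.56) and FANCB (0.55) were the highest of these and XRCC2 (-0.51) the lowest. Both comparisons with the vector line use the same vector columns. None of these differences could be tested, as each rests on 4 single columns.

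Between lines in the same state, the ubAPE1 line without doxycycline lay above both other lines. Its median member was 0.091 log2 above the vector line (23 of 31 higher, all rows 0.019) and 0.20 above the wtAPE1 line (24 of 31 higher, all rows -0.019). With doxycycline the order turned, at -0.13 against the vector line (21 of 31 lower, all rows 0.055) and -0.13 against the wtAPE1 line (27 of 31 lower, all rows 0.0097). These comparisons share columns and are given side by side only. In ubAPE1 against vector with doxycycline, 1 of the 31 members was past 1.5-fold lower (6.98% of rows were), WRN at -0.75 log2, and 0 were past 1.5-fold higher (3.29% of rows). The wtAPE1 line lay at a median of -0.13 without and -0.016 with doxycycline against the vector line, and its lowest members without doxycycline were BRIP1 (-0.50) and CHEK1 (-0.49).

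The differences that the design lets be tested are those common to both states or to all lines, fitted with limma over all 11619 rows with line and doxycycline as terms. In that fit lines and states stand in for replicates (6 columns, 2 residual degrees of freedom). All rows shared the same variance, so a p-value sets the size of a row's estimate against the unevenness pooled over all rows. A row's own evenness across lines and states does not enter its p-value. For the doxycycline effect common to the 3 lines, 0 of the 31 members passed an adjusted p of 0.05 in limma, where 0.0344% of rows were called higher and 0.043% lower. The median effect was -0.044 log2 (all rows 0.019), the 95% interval of each member was its estimate ± 0.285 and no member reached an unadjusted p of 0.05 (0 of 31, against 2.55% of rows). Leaving out the ubAPE1 line turned this median to 0.039.

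For wtAPE1 minus vector, 0 of 31 members passed (1.62% of rows called higher and 4.03% lower). The lowest was WRN, at -0.38 log2 (95% interval -0.72 to -0.026, limma adjusted p = 0.208), which was the 1 member under 0.05 before adjustment (20.5% of rows). For ubAPE1 minus vector, 0 passed (1.08% of rows higher and 3.55% lower) and 0 were under 0.05 unadjusted (13.6% of rows). The smallest limma adjusted p among the members was 0.442, also that of WRN (-0.32 log2). For ubAPE1 minus wtAPE1, 0 members passed (0% of rows higher and 0.00861% lower) and 0 were under 0.05 before adjustment (0.904% of rows). The intervals between lines were ± 0.349 log2, so differences of that size in single members were not resolved.

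**Figure D3:**
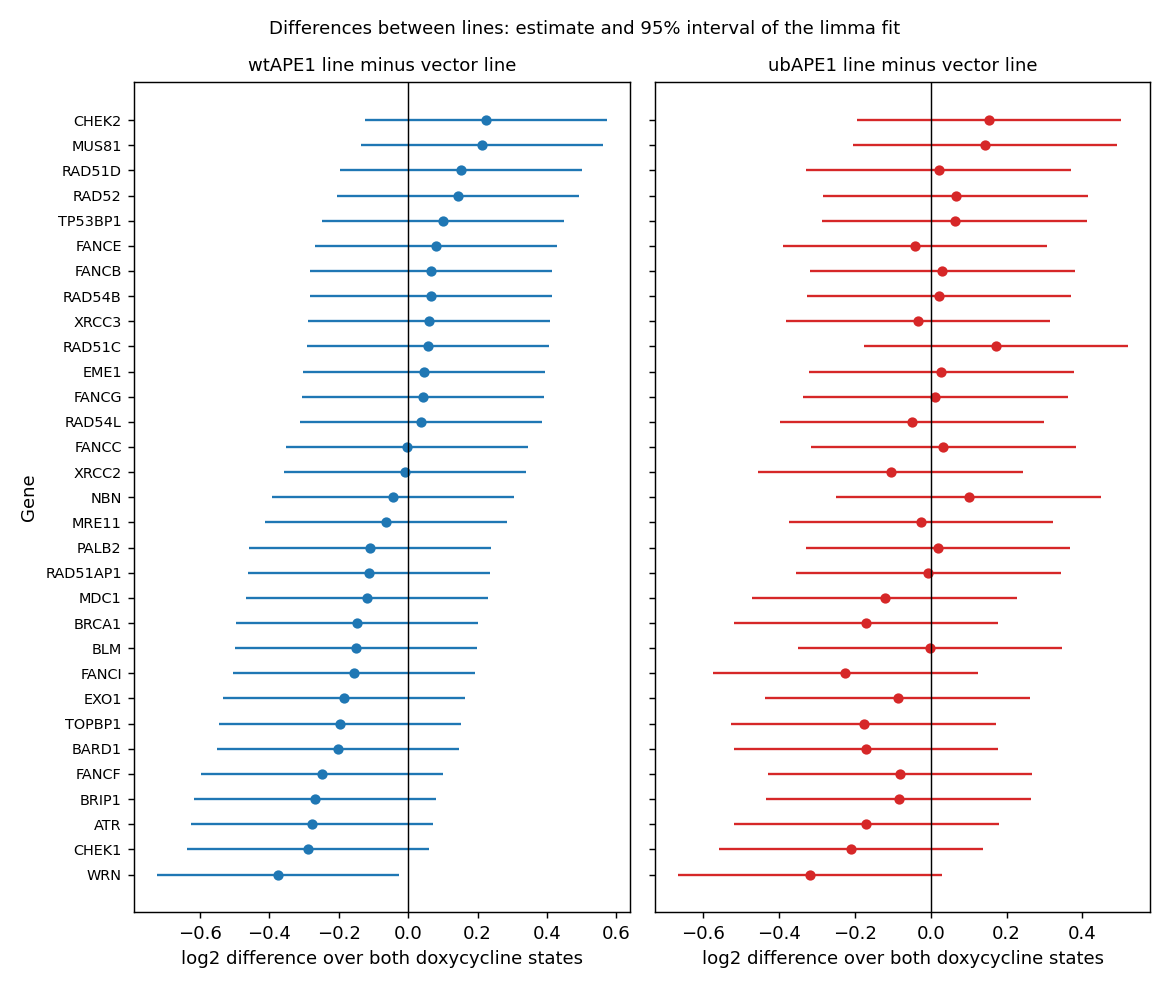
Difference of the wtAPE1 line (left) and the ubAPE1 line (right) from the vector line over both doxycycline states for the 31 members above the level filter, in log2, with points for the limma estimate and bars for its 95% interval. Genes are ordered by the wtAPE1 difference, and WRN is at the bottom, at -0.38 and -0.32.

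These counts depended on the ubAPE1 columns. Leaving out the ubAPE1 column without doxycycline leaves that line with 1 column, assumed to vary like the other lines and corrected for their doxycycline effect, so that the line's own doxycycline response enters the line difference. With it left out, limma called 4 members lower in ubAPE1 than in vector, namely WRN (-0.70 log2, adjusted p = 0.00457), FANCI (-0.57, adjusted p = 0.0211), TOPBP1 (-0.54, adjusted p = 0.0262) and BARD1 (-0.49, adjusted p = 0.0469), where 18.3% of rows were called. WRN was called lower in wtAPE1 than in vector without either ubAPE1 column, at the same -0.38 log2 (adjusted p = 0.0384, 19.8% of rows called). That difference uses the vector and wtAPE1 columns alone, and the SE was 0.129 log2 in place of 0.178.

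Length of the gene moved with the ubAPE1 response. Over the 31 members Spearman's rho between genomic length and the ubAPE1 response was -0.59, and over the 9647 rows with a length it was -0.41. This is a correlation across genes of the same 2 columns, and genes are not independent replicates. In the vector and wtAPE1 lines rho was 0.17 and 0.21 over the members, and 0.15 and 0.22 over the 9647 rows. The 22 members of 30 kb or longer had a median ubAPE1 response of -0.37 log2, with 20 below 0, against -0.089 over 4698 rows of that length. The 9 shorter members had a median of 0.058, with 6 above 0, against 0.15 over 4949 rows. WRN spans 142 kb and FANCB 184 kb, while MUS81 spans 8.0 kb and FANCG 6.1 kb. Other members did not follow this order, with ubAPE1 responses of -0.10 for FANCC (219 kb), 0.066 for RAD52 (79 kb) and -0.33 for RAD51AP1 (21 kb).

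With the median of rows of like length subtracted (20 bins of length), the median ubAPE1 response of the members was -0.19 log2 and 24 of 31 were below 0. Over the 9647 rows the median was 0.027 and 4470 were below 0. No member then passed 1.5-fold lower (2.06% of the 9647 rows did). The lowest were XRCC2 and FANCB, both at -0.52, then WRN at -0.51 and TOPBP1 at -0.50 log2. The difference from the wtAPE1 response was below 0 for 29 of 31 members (median -0.25), with 2 past 1.5-fold lower (4.79% of rows). Over the 9647 rows that difference had a median of -0.0032, with 4858 below 0. The part of length in the ubAPE1 response beyond these values was not tested.

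**Figure D4:**
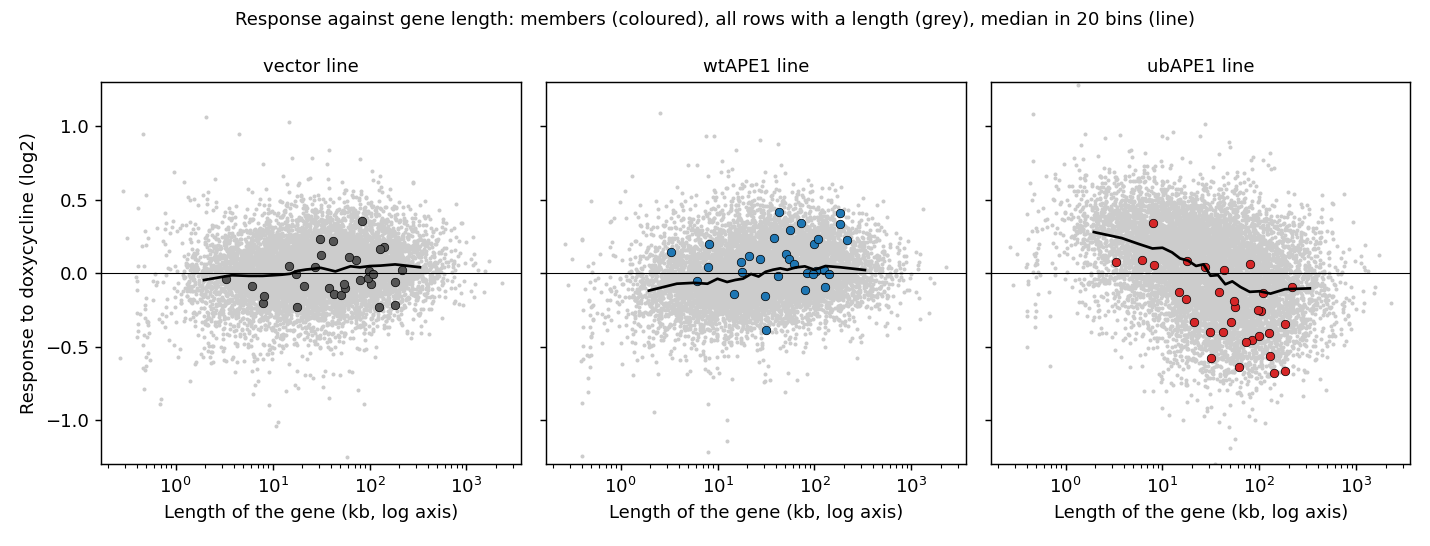
Doxycycline response in log2 (vertical) against genomic length in kb on a log axis (horizontal) in the 3 lines, with the members as coloured points over all rows with a length in grey. In the ubAPE1 line Spearman's rho is -0.59, and in the vector and wtAPE1 lines it is 0.17 and 0.21. Of the 22 members of 30 kb or longer, 20 lie below 0 and 2 above in the ubAPE1 line. Of the 9 shorter members, 6 lie above 0 and 3 below, down to -0.33.

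The wider pathway was described with a list of 63 further genes, of which 45 were measured and 42 passed the level filter. Their median ubAPE1 response was -0.13 log2, with 23 of 42 below 0, 7 past 1.5-fold lower (2.75% of all rows) and 1 past 1.5-fold higher (1.71% of rows), and their vector and wtAPE1 medians were 0.024 and -0.0084. USP1, the protease that removes ubiquitin from the FANCI and FANCD2 pair, lay at 8.10 and 8.43 log2 in vector cells, 7.98 and 7.97 in wtAPE1 cells, and 8.47 and 7.73 in ubAPE1 cells, a ubAPE1 response of -0.75. CLSPN, the adaptor through which ATR reaches CHEK1, had a ubAPE1 response of -0.75, and RAD17, which loads the checkpoint clamp, of -0.60. RIF1 and RNF168, which act on repair choice at the chromatin of breaks, had -0.70 and -0.61. FIGNL1, an ATPase, and GEN1, a nuclease that resolves Holliday junctions, both had -0.63. H2AX, the histone variant phosphorylated around breaks, was the 1 gene past 1.5-fold higher, at 8.63 and 8.27 log2 in vector cells, 8.52 and 8.42 in wtAPE1 cells, and 8.11 and 8.78 in ubAPE1 cells. It was lower with doxycycline in the vector line (-0.36) and higher in the ubAPE1 line (0.67). In limma, RAD1, a subunit of the checkpoint clamp, was the 1 of the 42 called, lower in wtAPE1 than in vector by -0.58 log2 (adjusted p = 0.0243), where 4.03% of rows were called. The response of REV3L, the catalytic subunit of polymerase zeta, was -0.57 in the ubAPE1 line. With the length trend removed, 5 of the 42 were past 1.5-fold lower (2.06% of rows). Past 1.5-fold higher lay 0 of the 42, so H2AX was then short of it (113 of the 9647 rows were past it).

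Other gene lists are given for comparison. The 21 replication genes had medians of -0.066 (vector), 0.11 (wtAPE1) and -0.15 (ubAPE1) log2, and the 15 mitosis genes -0.081, 0.24 and -0.20, the same signs as the members (-0.041, 0.080 and -0.25). The 6 genes of non-homologous end joining, the repair route that does not use a template, had -0.035, -0.084 and 0.16. The 3 mismatch repair genes had 0.035, -0.10 and -0.37, and the 12 of nucleotide excision repair 0.071, 0.11 and -0.043. The ubAPE1 minus the wtAPE1 response had a median of -0.36 for the members (26 of 31 below 0). It was -0.54 for mitosis (14 of 15 below 0) and -0.25 for replication (16 of 21). Mismatch repair had -0.35, nucleotide excision repair -0.11 and end joining 0.13. The part of the levels of replication and mitosis genes in the members' responses was not tested.

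**Figure D5:**
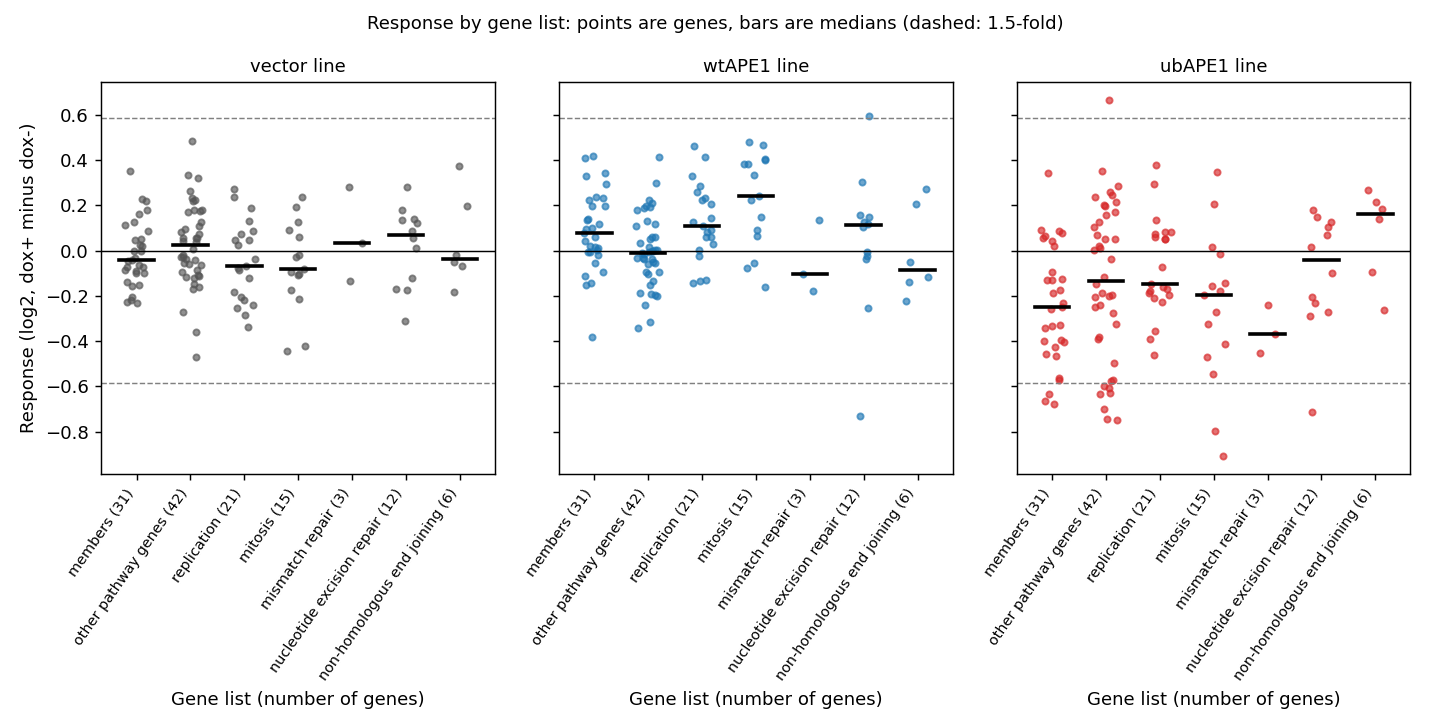
Doxycycline response in log2 of each gene of the members, the other pathway genes and 5 comparison lists in the 3 lines, with 1 point per gene above the level filter, bars for the medians and dashed lines at 1.5-fold. The members' bar lies at -0.041 (vector), 0.080 (wtAPE1) and -0.25 (ubAPE1), and the end-joining bar at 0.16 in the ubAPE1 line.

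Among the members with a known promoter and a level above the filter, the 4 with the E2F letters shown above had a median ubAPE1 response of -0.49 log2 and the 23 without -0.17. The 4 were TOPBP1 (-0.63, 62 kb), XRCC2 (-0.57, 31 kb), EXO1 (-0.40, 42 kb) and FANCC (-0.10, 219 kb). All 4 are longer than 30 kb, and the part of length in this difference was not tested. In the vector line the same medians were 0.12 and -0.063. With CCAAT (14 members) and without it (13 members) the ubAPE1 medians were -0.21 and -0.13. With the CHR letters (3 members) and without them (24 members) the order was the other way, at -0.17 and -0.21. These are descriptions of a few genes whose promoters were matched by letters.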

How the data were processed

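The deposited table held log2 expression values per array row, 1 column for each of 6 samples of HEK293 lines, which the authors had averaged from 3 replicates per the series' design text. The values themselves gave the log2 scale. How probes were summarised and normalized is not given in the sources used here, and the submitters' processing notes name genome build hg18. Rows were named through the platform's annotation: 12616 had 1 symbol, 2031 several and 845 none. Rows whose mean was at or above the 25th percentile were kept (11619), and each column was centred on its median over them.

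Responses and differences of single columns were given as sizes without a test, 1.5-fold being the rule for a large one. The additive model of cell line and doxycycline was fitted with limma 3.58.1 (R 4.3.3, lmFit and eBayes) over all kept rows, with Benjamini-Hochberg adjustment and a threshold of 0.05. The fit was tested on simulated data. The estimated prior degrees of freedom were infinite, so all rows shared 1 variance, which gave each line difference an SE of 0.178 log2. The median of the rows' own residual SDs, before this sharing, was 0.146 log2. Members given with all 6 values were those past 1.5-fold in a response and the 3 highest and 3 lowest of each response, and for ATR, FANCM, USP1 and H2AX the values were added after they were seen. The members, gene lists and rules were chosen with earlier results of these data known. Alternatives were values as deposited, quantile normalization, no filter or a 50th percentile filter, a floor at the 10th percentile, length or level trends removed in 20 bins, 1 row per gene, other limma settings and terms, leaving out columns, and a 2-fold rule. The number of arrays limits the precision.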

Additional observations from a re-analysis of the deposited data

Results flagged for a closer look

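For 11 members the doxycycline responses of 2 lines had opposite signs and differed by at least 1.5-fold, which gave 12 differences, TOPBP1 being in both comparisons. By size alone, whatever the signs, 8.31% of rows were past 1.5-fold lower against the vector response and 6.15% against the wtAPE1 response. The share of rows that also had opposite signs is not given here, so the number flagged is not read as particular to the members. The differences were not tested, since each line had 1 averaged column per state. In the ubAPE1 line against the vector line, the response was lower by the following log2 differences: -0.86 for WRN, -0.81 for BARD1, -0.75 for TOPBP1, -0.73 for ATR, -0.70 for XRCC2, -0.63 for RAD54L and -0.62 for EXO1. In the ubAPE1 line against the wtAPE1 line, they were -0.999 for FANCB, -0.81 for FANCI, -0.75 for BRIP1, -0.70 for TOPBP1 and -0.63 for BLM. In all 12 the ubAPE1 response was below 0 and the other above it.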

How the results depend on the processing

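Among replicates, no paired analysis was possible because each group was 1 averaged column with no replicate numbers in the labels. The cell line, which pairs the states with and without doxycycline, was a term of the limma fit. A median was read as moved beyond 0.146 log2, the median residual SD, and a count beyond 1.5 times, which 24 alternative values of the main counts and medians were. Smaller shifts include the vector and wtAPE1 response medians of -0.10 and 0.16 as deposited (-0.041 and 0.080 centred) and the ubAPE1 minus vector median of -0.087 with the length trend removed (-0.18). With the values as deposited, the median ubAPE1 response was -0.42 log2, with 8 members past 1.5-fold lower in place of 3. The median difference from the wtAPE1 response was then -0.62, with 16 members lower in place of 6, and wtAPE1 minus vector had a median of 0.33, with 3 members higher in place of 0. As deposited the median row lay at -0.13 (ubAPE1), 0.074 (wtAPE1) and -0.045 (vector), so these shifts of the members include a shift of all rows. Members past 1.5-fold lower in the ubAPE1 response numbered 5 with no filter, 1 with the 50th percentile filter, and 0 with the length trend removed or the 2-fold rule. Those lower in the ubAPE1 than in the vector response (7) numbered 3 with the 50th percentile filter, 3 with the length trend removed and 0 with the 2-fold rule, and 1 was higher in place of 0 with the 50th percentile filter or the level trend removed. Against the wtAPE1 response (6) these numbers were 3, 2 and 0. With the length trend removed, the shares of rows past 1.5-fold lower were 2.06% (ubAPE1 response), 6.16% (against vector) and 4.79% (against wtAPE1). Shares of all rows are not given for the other alternatives, so those counts describe the members without a comparison. For wtAPE1 minus vector, the members higher (0) numbered 1 with quantile normalization, 2 with no filter and 1 with the level trend removed, a setting chosen after seeing the data. The values as deposited and the 2 other filters differ from the main setting in the centring of the columns, which moves all members of a response by the same amount. No filter also counts 33 members and the stricter filter 23. The cause of the other changes was not tested. In limma, leaving out 1 column gave 0 to 4 members lower in ubAPE1 than in vector and 0 to 1 lower in wtAPE1 than in vector. The median ubAPE1 minus wtAPE1 line difference (-0.0043) changed sign to 0.061 as deposited, 0.0053 and 0.021 with the length and level trends removed, 0.039 with no filter and 0.0066 with quantile normalization, and lay from -0.12 to 0.15 when 1 column was left out. Likewise the common doxycycline median lay from -0.11 to 0.039 (0.039 without the ubAPE1 line), ubAPE1 minus vector from -0.14 to 0.12 and wtAPE1 minus vector from -0.20 to 0.051. Signal over background was not in the values, so the level filter alone limits how low a member could be read.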
